A study of Mus musculus with 10 samples.

Results

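The genes described here are 10 that define macrophages as a class or serve to isolate them, followed in microglia from the midbrain and the striatum, out of 53715 genes counted in each library. They were chosen by name: Itgam, which codes for CD11b, the antigen held by the magnetic beads; Ptprc, which codes for CD45, used to gate the purity of the preparation; and Aif1, Csf1r, Adgre1, Fcgr2a, Mertk, Cd53, Laptm5 and Coro1a, which are used as labels of macrophages or leukocytes. The question was which of them keep a level steady enough to serve as references when microglia of these regions are compared. The symbol Fcgr2a is not used for a mouse gene in the gene names, and RefSeq lists it as a synonym of Fcgr2b, under which the gene is given below; Fcgr3, another Fc gamma receptor gene that may have been meant, is given with its family. All 10 genes passed the filter on low counts in every comparison, and the least covered of them, Cd53, had at least 96 counts in each library.

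Cells came from untreated male mice aged 3 months, C57BL/6 in the labels and C57BL/6 J in the methods, housed normally and perfused with cold saline. Tissue was digested with papain, cleared on Percoll and passed over CD11b beads, so any other cell with CD11b on its surface would be retained as well, and poly-A RNA was sequenced from the bound cells in bulk. The pilot cohort held 2 midbrain and 2 striatum libraries, and the second cohort is compared here with 2 midbrain and 2 striatum libraries whose title and file name agree on the region; the other 2 libraries, whose titles and file names name opposite regions, enter no group. The study reports midbrain and striatum transcriptomes from as many mice per experiment as there were libraries of a region. By these numbers both regions would have come from each mouse, though its methods do not state this. No source used here ties a library to a mouse, so which midbrain and striatum libraries share a mouse is not known, and p-values measure the spread between these samples. No library carried a genetic change or a treatment.

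CD11b pairs with the beta 2 integrin subunit to form the receptor by which macrophages bind complement-coated particles and the endothelium. CD45 is the tyrosine phosphatase of leukocytes that removes the inhibitory phosphate from Src family kinases. Csf1r receives CSF1 and IL-34, without which microglia do not survive, and the transcription factor PU.1 acts on many genes of this class.

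Depth ranged from 575709 to 8463782 counts over the 8 libraries, a ratio of 14.7, and the shallowest was replicate 3 of the second-cohort striatum. A count of 3, taken as the floor, stood for 0.351 to 5.16 CPM, the unit used for levels below, in which each library is brought to the same size with TMM factors. This floor leaves out errors other than counting, and PCR copies of a molecule are counted as separate reads. Replicate 2 of the pilot striatum stood apart in several genes: it had the lowest B2m of the 8 libraries, at 473 CPM against 2437 to 8522 in the others, and the lowest sum of mitochondrial genes, at 469 CPM against 1112 to 4602. All 14 homeostatic microglia markers were detected above the filter, with a summed level of 12800 to 15900 CPM in midbrain and 18100 to 25700 CPM in striatum libraries. Markers of other CD11b-bearing cells moved with region in both cohorts. Some lists share a gene, so their sums are not fully separate. Csf3r is in the neutrophil and the homeostatic microglia lists, F13a1 in the monocyte and border macrophage lists, and Ly6c1 in the monocyte and endothelial lists. The 10 border macrophage genes summed to 1450 to 2670 CPM in midbrain and 316 to 830 CPM in striatum, the 10 monocyte genes to 473 to 3100 and 170 to 259 CPM, and the 10 neutrophil genes to 1130 to 6580 and 853 to 1010 CPM. The 12 immediate early genes, which respond to handling of the cells, summed to 22100 to 24300 CPM in the second midbrain and 11500 to 11900 CPM in the second striatum, and overlapped in the pilot cohort, at 19200 to 22700 and 13800 to 22900 CPM. Among the defining markers, Folr2 of border macrophages, Cd3g of T cells and Th and Drd1 of neurons had no count in any of the 4 striatum libraries. The part of these cells and genes in the results below was not tested, and in bulk RNA fewer cells of a type and less RNA per cell cannot be told apart.

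The 100 bases before the RefSeq start site (GRCm38.p6) are shown for 5 of the genes: for Aif1, which had the steadiest level, for Itgam and Laptm5, whose ratio was the steadiest, for Cd53, which varied most, and for Mertk, with the largest regional difference. Capitals mark GAGGAA or its reverse complement TTCCTC, a core of sites bound by PU.1.
Aif1, chr17:35176053-35176152, minus strand: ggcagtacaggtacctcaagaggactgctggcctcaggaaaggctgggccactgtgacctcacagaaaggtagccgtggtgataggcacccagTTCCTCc
Itgam, chr7:128062540-128062639, plus strand: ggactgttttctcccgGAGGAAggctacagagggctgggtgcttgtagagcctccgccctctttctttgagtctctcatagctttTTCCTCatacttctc
Laptm5, chr4:130913216-130913315, plus strand: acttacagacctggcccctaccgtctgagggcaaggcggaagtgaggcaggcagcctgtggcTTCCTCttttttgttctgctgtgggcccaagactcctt
Cd53, chr3:106790150-106790249, minus strand: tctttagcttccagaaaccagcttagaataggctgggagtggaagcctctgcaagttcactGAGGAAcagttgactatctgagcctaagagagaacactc
Mertk, chr2:128698815-128698914, plus strand: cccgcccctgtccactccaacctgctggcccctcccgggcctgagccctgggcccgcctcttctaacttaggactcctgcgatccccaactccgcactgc
Over the whole window of 300 bases, 250 before the start and 50 after it, the letters occurred in 5 of the 10 windows read for 8 of the genes, and in 28.3% of 32851 windows of the same length over all genes. Csf1r was left out of this reading, and no window was available for Adgre1. Itgam held 3 matches, Cd53 2, and Aif1, Laptm5 and 1 of 2 windows of Ptprc 1 each. The windows of Fcgr2b, Mertk and Coro1a held none. A match is a description of the letters and not a bound site.

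In the pilot cohort, 1 of the 10 genes passed the threshold for a regional difference (limma voom, unadjusted p under 0.01), where 2.64% of 14972 genes did: Mertk was lower in the midbrain, as were 0.548% of all genes by the same threshold. In the second cohort none of the 10 passed, against 3.47% of 13486 genes. With both cohorts in a single fit that carried the cohort as a covariate, none passed at a Benjamini-Hochberg adjusted p under 0.05, against 1.06% of 14053 genes, and 4 of the 10 had an unadjusted p under 0.05, against 14.6% of all genes. These 4 were Itgam, Csf1r and Mertk, with lower estimates in midbrain, and Coro1a, with a higher estimate. The median log2 difference of the 10 genes, midbrain minus striatum, was -0.27 in the pilot cohort, -0.18 in the second cohort and -0.19 in the joint fit, where the medians over all genes tested were 0.02, -0.001 and 0.04. No gene, of the 10 or of all 14053, passed for a difference of the regional change between the cohorts by limma or by edgeR at an adjusted p under 0.05. By limma 771 genes, 5.49% of those tested, had an unadjusted p under 0.05, none of them among the 10. DESeq2 called 3 genes, none of them among the 10.

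**Figure D1:**
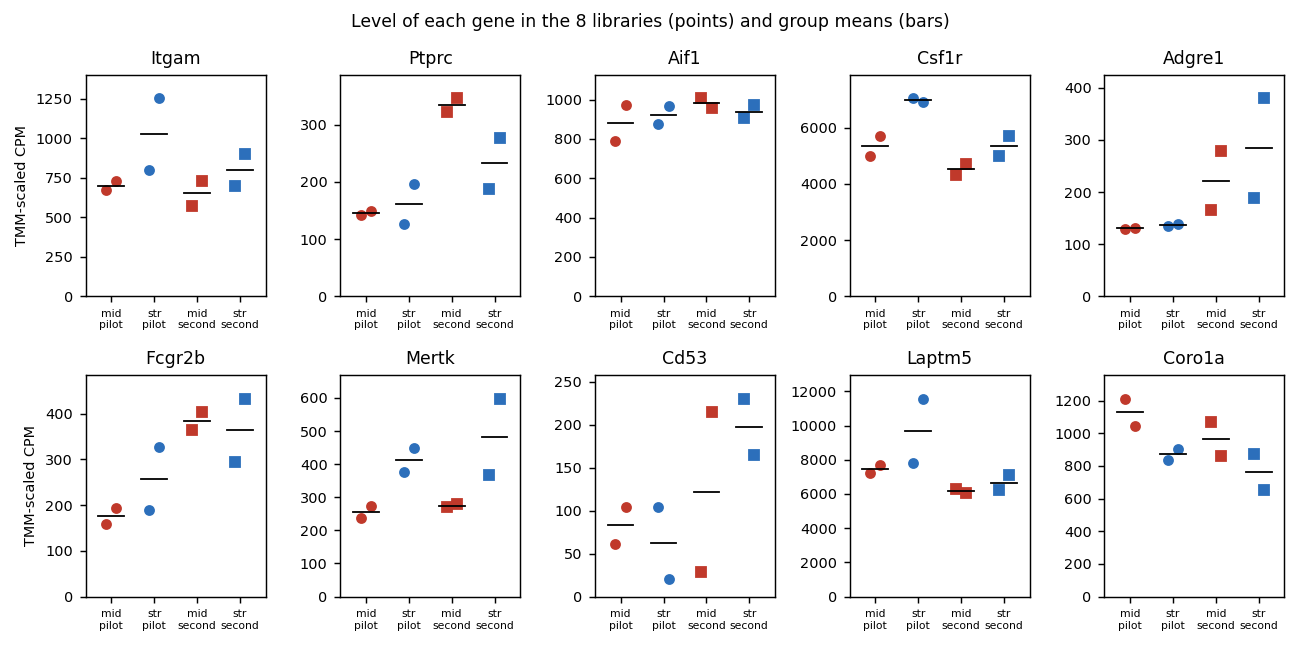
Level of each of the 10 genes in TMM-scaled CPM (vertical axes, from 0) in the 2 libraries of each group, midbrain (mid, red) and striatum (str, blue), pilot (circles) and second cohort (squares); bars are group means. Aif1 stays between 789 and 1007 CPM in every library, while Ptprc, Adgre1 and Fcgr2b lie higher in most second-cohort libraries and Cd53 differs strongly between replicates.

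Itgam (chromosome 7, 128062640 to 128118491, plus strand, GRCm38) stood at 672 and 727 CPM in the pilot midbrain, 797 and 1253 CPM in the pilot striatum, 572 and 733 CPM in the second midbrain and 697 and 899 CPM in the second striatum. The midbrain libraries lay below those of the striatum in the pilot cohort and overlapped with them in the second. The joint log2 difference was -0.40 (95% interval -0.77 to -0.04, adjusted p = 0.291, limma), or 0.756-fold. Itgam mRNA is counted in cells that were all selected on its protein. Its exons share 3450 bases, 68.7% of the gene, with the same-strand gene Gm49368, but none of the last 500 bases, where 3′ reads fall, and Gm49368 reached at most 8 counts in any library. Without replicate 2 of the pilot striatum, the highest library, the joint difference was -0.24 (adjusted p = 0.521).

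Ptprc (chromosome 1, 138062861 to 138175708, minus strand) stood at 142 and 149 CPM in the pilot midbrain and 126 and 196 CPM in the pilot striatum, where the groups overlapped. In the second cohort the midbrain libraries, at 323 and 346 CPM, lay above the striatum libraries, at 188 and 277 CPM. The log2 regional difference was -0.16 (-0.69 to 0.37) in the pilot and 0.59 (-0.004 to 1.18) in the second cohort. The difference between these estimates, 0.75 (-0.02 to 1.52), had an unadjusted p of 0.0544 and an adjusted p of 0.860 (limma interaction term). The joint estimate was 0.23 (-0.21 to 0.66, adjusted p = 0.646) with all libraries and -0.03 without replicate 1 of the second striatum.

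Csf1r (chromosome 18, 61105572 to 61132149, plus strand), the receptor for CSF1, stood at 4982 and 5704 CPM in the pilot midbrain and 7047 and 6903 CPM in the pilot striatum. In the second cohort it stood at 4331 and 4724 CPM in midbrain and 4982 and 5698 CPM in striatum. The midbrain libraries were thus below both striatum libraries in each cohort, an order that 6.04% of all genes tested showed and that Mertk alone shared among the 10. The joint log2 difference was -0.31 (-0.56 to -0.06, adjusted p = 0.228), or 0.806-fold, and it ranged from -0.40 to -0.26 when each library was left out in turn. The exact two-sided permutation test over the 36 labelings within cohorts gave p = 0.0556, the smallest it allows. The last 500 exonic bases of Csf1r lie within exons of the opposite-strand gene Hmgxb3, and no strand setting was named for the counting. If strand was not used, reads there belonged to both genes and were left out. The counts of Csf1r would then come from the rest of its exons. Hmgxb3 received at most 103 counts in a library, which does not tell how many reads were left out.

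Mertk (chromosome 2, 128698956 to 128802894, plus strand) codes for a receptor tyrosine kinase by which macrophages bind apoptotic cells through the bridging ligands Gas6 and protein S. It stood at 238 and 272 CPM in the pilot midbrain and 375 and 449.6 CPM in the pilot striatum, and at 271 and 278 CPM in the second midbrain and 367 and 598 CPM in the second striatum. In each cohort both midbrain libraries lay below both striatum libraries, an order that 6.04% of all genes tested showed. The log2 difference was -0.73 in the pilot cohort (-1.16 to -0.30, limma unadjusted p = 0.00382, adjusted p = 0.286), -0.74 in the second cohort (-1.35 to -0.13, unadjusted p = 0.0215) and -0.70 in the joint fit (-1.04 to -0.37, unadjusted p = 0.000710, adjusted p = 0.0587), or 0.614-fold. With the title number as a block, which pairs mice only if a number marks a mouse, the joint difference was -0.72 (-1.03 to -0.41, adjusted p = 0.0277) and passed, as did that of the second cohort (-0.77, unadjusted p = 0.00392). The exact permutation test gave p = 0.0556, again the smallest possible. Of 10 other settings of the joint fit 6 called Mertk, with an adjusted p from 0.00537 to 0.884 over the 10, and none of the 8 fits that left out 1 library did (0.0734 to 0.222). The pilot call was lost without midbrain replicate 1 (-0.62, unadjusted p = 0.0878) or replicate 2 (-0.82, unadjusted p = 0.0356). The value moved most with the 2 libraries of unsettled region: the joint difference was -0.87 when they were added by file name and -0.30 when they were added by title.

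Aif1 (chromosome 17, 35170991 to 35176068, minus strand), which codes for the calcium-binding protein IBA1, the usual histological label of microglia, differed least between regions of the 10 genes in the joint fit. It stood at 789 and 973 CPM in the pilot midbrain, 875 and 969 CPM in the pilot striatum, 1007 and 959.7 CPM in the second midbrain and 906 and 973 CPM in the second striatum. The libraries of the regions overlapped in each cohort. The joint log2 difference was -0.004 (-0.27 to 0.26, adjusted p = 0.992), an interval that reaches from 0.831-fold to 1.20-fold.

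Adgre1 (chromosome 17, 57358686 to 57483529, plus strand), which codes for the adhesion receptor F4/80, stood at 129 and 131 CPM in the pilot midbrain and 134 and 138 CPM in the pilot striatum. In the second cohort it stood at 165 and 279 CPM in midbrain and 188 and 379.8 CPM in striatum, where the regions overlapped. The joint log2 difference was -0.13 (-0.58 to 0.33, adjusted p = 0.823). Fcgr2b (chromosome 1, 170958617 to 170976547, minus strand), the inhibitory Fc gamma receptor, stood at 159 and 194 CPM in the pilot midbrain, 189 and 327 CPM in the pilot striatum, 363 and 403 CPM in the second midbrain and 294 and 433 CPM in the second striatum. The regions overlapped in both cohorts, and the joint log2 difference was -0.20 (-0.65 to 0.26, adjusted p = 0.713).

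Laptm5 (chromosome 4, 130913125 to 130936141, plus strand), a lysosomal membrane protein of haematopoietic cells, stood at 7233 and 7686 CPM in the pilot midbrain, 7786 and 11580 CPM in the pilot striatum, 6293 and 6062 CPM in the second midbrain and 6218 and 7095 CPM in the second striatum. The joint log2 difference was -0.23 (-0.54 to 0.08, adjusted p = 0.484). Coro1a (chromosome 7, 126699773 to 126707787, minus strand), an actin-binding protein of leukocytes, stood at 1213 and 1048 CPM in the pilot midbrain, 838 and 905 CPM in the pilot striatum, 1068 and 863 CPM in the second midbrain and 874 and 653 CPM in the second striatum. Its midbrain libraries were above those of the striatum in the pilot cohort and overlapped in the second. The joint log2 difference was 0.35 (0.06 to 0.64, adjusted p = 0.257), and between 0.25 and 0.40 when each library was left out. The exons of Coro1a share 26 bases, all in its last 500, with the opposite-strand gene Bola2, which reached 986 counts in a library.

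**Figure D2:**
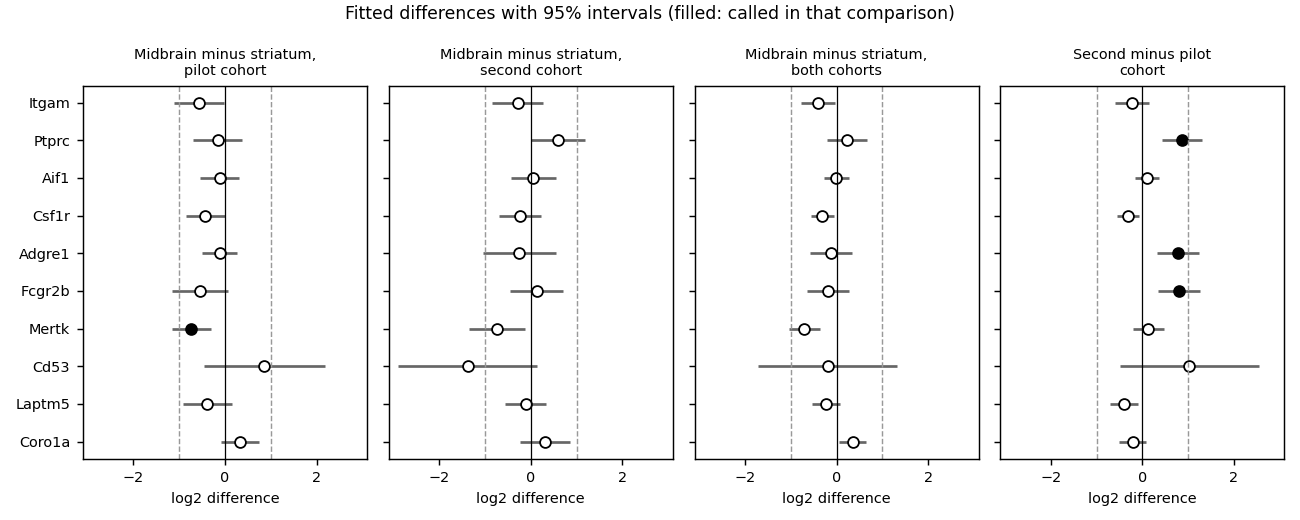
Log2 differences (horizontal axes) fitted with limma voom for the 10 genes, with 95% intervals as lines, 0 as a solid and -1 and 1 as dashed verticals; filled points passed the threshold of that comparison. Mertk lies left of 0 with its whole interval in all 3 regional panels, Cd53 has the widest intervals, and Ptprc, Adgre1 and Fcgr2b are the filled points of the cohort panel.

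By order alone, both midbrain libraries lay below both striatum libraries for 5 of the 10 genes in the pilot cohort, where 19.4% of all genes did, and for 2 in the second cohort, where 17.4% did. They lay above for 1 gene in each cohort, Coro1a in the pilot and Ptprc in the second, where 23.5% and 24.3% of all genes did. The pilot count contains Itgam and Laptm5, both highest in replicate 2 of the pilot striatum.

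Some of the genes differed between the cohorts. At an adjusted p under 0.05, 3 of 10 were higher in the second cohort and none was lower, where 4.71% of all genes were higher and 10.5% differed in either direction. Ptprc was higher by 0.86 on the log2 scale (0.43 to 1.29, 1.82-fold, adjusted p = 0.0239), Fcgr2b by 0.81 (0.35 to 1.27, 1.75-fold, adjusted p = 0.0349) and Adgre1 by 0.78 (0.32 to 1.24, 1.71-fold, adjusted p = 0.0386), by limma over 8 libraries. Of the 8 fits that left out 1 library, Ptprc passed in 2, Fcgr2b in 2 and Adgre1 in 3; the fits without replicate 2 of the pilot striatum or replicate 1 of the second striatum called all 3 genes, and that without replicate 1 of the second midbrain called Adgre1. The adjusted p reached 0.110 for Ptprc, 0.144 for Fcgr2b and 0.129 for Adgre1 in the least favourable of these, which left out replicate 1 of the pilot midbrain for all 3 genes, with log2 differences of 0.77, 0.68 and 0.80. Scaled to the housekeeping genes, which moved the median of all genes from -0.02 to -0.40, the differences were 0.49, 0.44 and 0.41 and none of the 3 passed. This scaling rests on 12 genes, of which 6 were constant by the rule below, and B2m among them passed as higher in the second cohort. The median of the whole list of 18 was 0.363 higher there. The log2 factors against TMM were -0.339 to -0.066 in pilot and 0.092 to 0.300 in second-cohort libraries, so the scaling itself moved with cohort. Under that scaling 4 other members, Itgam, Csf1r, Laptm5 and Coro1a, passed as lower in the second cohort, and all genes split into 235 higher and 3508 lower, against 662 and 818 with TMM factors. The estimates of Ptprc, Fcgr2b and Adgre1 stayed above 0 under each scaling tried. Csf1r and Laptm5 had lower estimates in the second cohort, of -0.31 (adjusted p = 0.0948) and -0.40 (adjusted p = 0.0908). Over 10 other settings, housekeeping scaling among them, Csf1r passed as lower in 4 and Laptm5 in 5. Their adjusted p by limma, edgeR or DESeq2 ran from 0.00384 to 0.283 and from 0.00581 to 0.154 over these settings. Neither passed in any of the 8 fits that left out 1 library. Cohort here is whatever separates the pilot from the later experiment, and its parts cannot be told apart. Summed endothelial markers stood at 300 to 387 CPM in the pilot libraries and at 54.2 to 140 CPM in the second cohort, and their part was not tested.

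A gene was listed as constant when it had at least 50 counts in each of the 8 libraries, its highest CPM was under 2 times its lowest, and the 95% intervals of both the regional and the cohort log2 difference lay inside -1 to 1. By this rule 4 of the 10 genes were constant: Aif1, Csf1r, Laptm5 and Coro1a. The rule limits the size of a difference and does not show that there is none. The joint regional interval of Csf1r lay wholly on the side lower in midbrain, and that of Coro1a wholly on the side higher in midbrain. The ratio of Csf1r to Coro1a spanned 2.15-fold over the 8 libraries. Over all 2162 genes with at least 50 counts in each library, 57.1% were constant, so the share among the 10 was no larger than among other well-covered genes. The highest level was 1.28 times the lowest for Aif1, 1.63 times for Csf1r, 1.86 times for Coro1a and 1.91 times for Laptm5. With limits of 1.5-fold only Aif1 remained, where 13.9% of the well-covered genes did. The SD of log2 CPM over the libraries was 0.115 for Aif1, of which counting alone accounts for 0.030, and 1.53% of the well-covered genes had a smaller SD. Their median SD was 0.318.

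Of the genes that were not constant, Itgam came closest to the limit, with a highest level 2.19 times the lowest. Its intervals lay inside the limits, and it was listed without replicate 2 of the pilot striatum or without replicate 1 of the second midbrain, its highest and its lowest library. Mertk spanned 2.51-fold, and its regional interval crossed the limit of -1. Without replicate 3 of the second striatum, where it was highest and which was also the shallowest library, it spanned 1.89-fold and was listed. Fcgr2b spanned 2.73-fold, Ptprc 2.74-fold and Adgre1 2.94-fold, and the cohort interval of each crossed the limit of 1. Cd53 spanned 11.5-fold. Aif1, Csf1r, Laptm5 and Coro1a were listed in each of the 8 rounds that left out 1 library. The 2 libraries of unsettled region did not enter the rule. With TMM factors over all 10 libraries, Laptm5 stood at 4773 CPM in 1 of them, against 6139 to 11810 CPM in the 8, a range over the 2-fold limit. Csf1r in the same library (3831 CPM, against 4356 to 7047 CPM) and Coro1a in the other (657.5 CPM, against 666 to 1178 CPM) also lay below the 8. Aif1 lay inside their range in both. Scaled to the housekeeping genes, Aif1 alone was listed, and by library size without TMM factors Laptm5 was not.

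**Figure D3:**
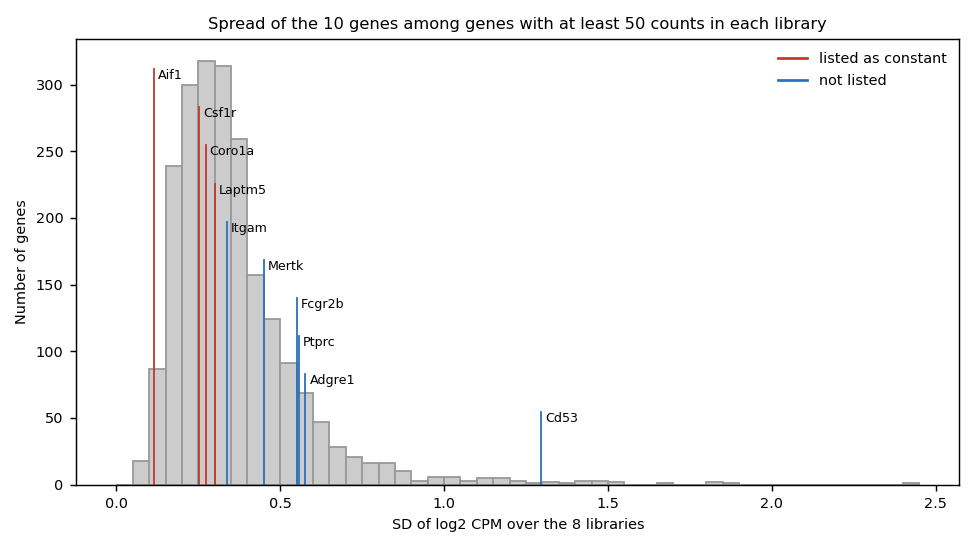
Histogram of the SD of log2 CPM over the 8 libraries (horizontal axis) for the 2162 genes with at least 50 counts in each library (number of genes, vertical axis), with vertical lines for the 10 genes, red where listed as constant; line heights serve only to set the labels apart. Aif1 sits at 0.115 near the left edge and Cd53 at 1.30 in the right tail.

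Housekeeping genes commonly used as references were judged by the same rule. Of 18 such genes 12 had at least 50 counts in each library, and 6 of these 12 were constant, among them Gapdh, Sdha and Gusb. The smallest range among these 12 was that of Sdha, a subunit of succinate dehydrogenase, with 108 to 126 CPM or 1.17-fold. The largest was that of B2m, the light chain of MHC class I, with 18.02-fold, or 3.50-fold without replicate 2 of the pilot striatum, its lowest library. Actb, which codes for beta actin, spanned 2.005-fold. The 5 steadiest of all well-covered genes were Eif3g (1.123-fold), Alas1, Rhog, Lamtor1 and Rnf166 (1.16-fold).

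A pair of genes can also be judged by their ratio, which no scaling of libraries can change. Over the 8 libraries the steadiest ratio was that of Itgam to Laptm5, with an SD of 0.179 on the log2 scale and a range of 1.39-fold, followed by Csf1r to Laptm5 (0.183) and Itgam to Csf1r (0.211). These 3 genes all had lower estimates in midbrain and in the second cohort. Ptprc to Fcgr2b (0.238, range 1.5-fold), both on chromosome 1 and both higher in the second cohort, came next. Averaged over its ratios to the other genes, Aif1 had the smallest SD, 0.503, and Cd53 the largest, 1.36.

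**Figure D4:**
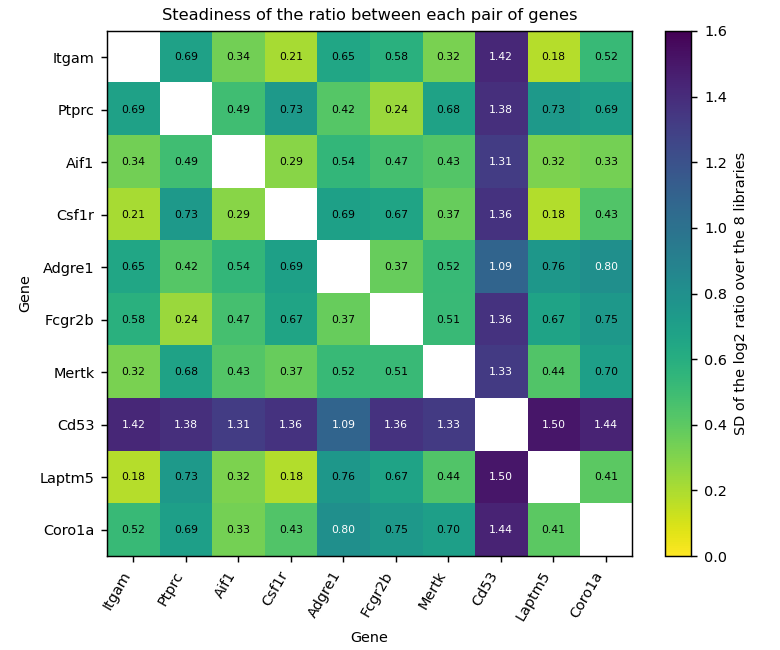
SD over the 8 libraries of the log2 ratio between each pair of the 10 genes (colour and printed value; rows and columns are genes). The square of Itgam, Csf1r and Laptm5 holds the smallest values, 0.18 to 0.21, and every ratio with Cd53 is above 1.

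Cd53 (chromosome 3, 106759921 to 106790149, minus strand), a tetraspanin of leukocytes, behaved unlike the rest. It stood at 61.1 and 104.6 CPM in the pilot midbrain, 104.5 and 20.0 CPM in the pilot striatum, 29.1 and 215 CPM in the second midbrain and 230.2 and 165 CPM in the second striatum. Replicates of the same group differed up to 7.40-fold, against at most 2.02-fold for any other of the 10 genes. The regional log2 difference was 0.86 (-0.46 to 2.18) in the pilot and -1.38 (-2.90 to 0.14) in the second cohort. The difference of these, -2.30 (-4.94 to 0.34), had an unadjusted p of 0.0818 and an adjusted p of 0.860 (limma). The joint estimate of -0.19 (-1.71 to 1.33) was -0.94 without replicate 2 of the pilot striatum and 0.52 without replicate 1 of the second midbrain, the 2 libraries in which Cd53 was lowest, so no regional direction can be given. With the title number as a block the second-cohort difference was -1.35 (-1.94 to -0.76, unadjusted p = 6.74e-06) and passed, and the joint one was -0.28 (adjusted p = 0.877). Between cohorts its estimate was 1.02 (-0.50 to 2.53, adjusted p = 0.349), and without replicate 1 of the second midbrain it passed as higher in the second cohort (1.91, adjusted p = 0.0289).

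The gene nearest to Cd53 in its pattern over the 8 libraries, by Euclidean distance between centred log2 CPM among the 2162 well-covered genes, was mt-Nd2, a subunit of respiratory complex I encoded in the mitochondrial genome (Pearson's r = 0.962, a description over 8 libraries that share depth and scaling). Of the 10 nearest genes 6 were mitochondrial, where 8 of the 2162 genes are; this count was made after the values were seen. The others included Gpr34, a microglial receptor. The mitochondrial genes summed to 469 CPM in replicate 2 of the pilot striatum and 1112 CPM in replicate 1 of the second midbrain, the 2 lowest values, and to 1486 to 4602 CPM in the other 6 libraries. Cd53 was at 20.0 and 29.1 CPM in those 2 libraries and at 61.1 to 230.2 CPM in the other 6. Why these levels move together was not tested.

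**Figure D5:**
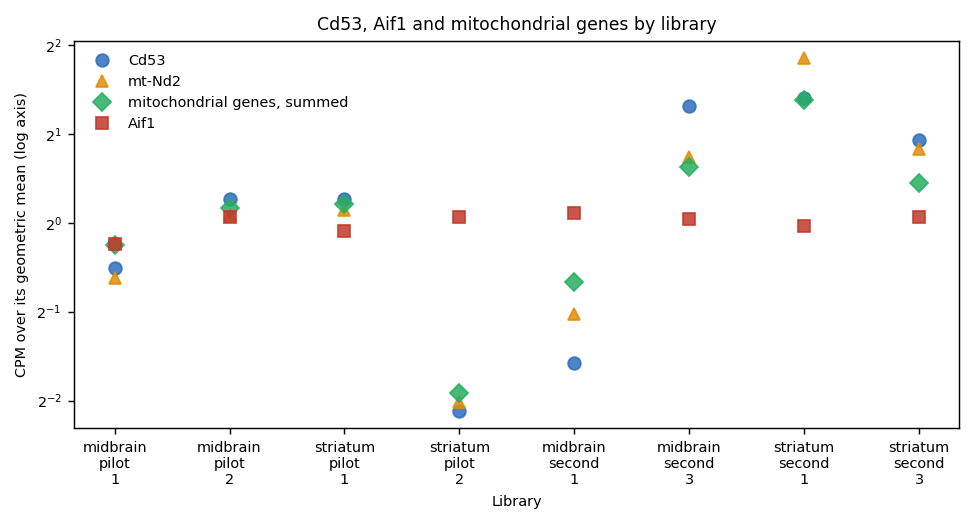
Level of Cd53, mt-Nd2, the sum of mitochondrial genes and Aif1 in each library, divided by the geometric mean of that gene over the 8 libraries (vertical axis, log scale). Cd53 and both mitochondrial measures are lowest in replicate 2 of the pilot striatum and next lowest in replicate 1 of the second midbrain, while Aif1 stays near 1 throughout.

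For the other genes the nearest patterns were those of Pcbp1 for Itgam, Pabpc1 for Ptprc, Scaf11 for Aif1, Gtpbp2 for Csf1r, Npl for Adgre1, Evi2a for Fcgr2b, Cflar for Laptm5 and Anapc11 for Coro1a. Mertk was nearest to Hpgds, which codes for haematopoietic prostaglandin D synthase (r = 0.978, distance 0.250). Hpgds stood at 469 to 516.5 CPM in the 4 midbrain libraries and 699 to 1002 CPM in the 4 striatum libraries. It was picked for its closeness to Mertk over these same libraries, so its order by region is not a separate observation.

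The partners of these proteins were read from lists of their pathways. Among 8 integrin adhesion partners, Itgax passed in the pilot cohort (log2 difference 1.08, unadjusted p = 0.00914) and Itgal in the second (1.499, unadjusted p = 0.00677), both higher in midbrain, and none passed in the joint fit, in which estimates ran from -0.12 for Fermt3 to 1.07 for Itgal. Itgax and Itgal code for the alpha chains CD11c and CD11a, which share the beta chain with CD11b. That beta chain, Itgb2, had a joint estimate of -0.04 (adjusted p = 0.922). Between cohorts 1 of the 8 partners passed, Icam1, which was lower in the second (limma, adjusted p under 0.05), where 10.5% of all genes differed in either direction. Of 10 genes of the CSF1 receptor pathway none passed between regions in either cohort or jointly, with joint estimates from -0.37 for Inpp5d to 0.33 for Il34. Between cohorts the adaptor Tyrobp was higher in the second (0.68, adjusted p = 0.0108) and the adaptor Grb2 lower (-0.60, adjusted p = 0.0214).

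Of the other TAM receptors and their ligands, Axl, another receptor tyrosine kinase for Gas6, had estimates of the opposite sign to Mertk. It stood at 81.2 and 55.3 CPM in the pilot midbrain against 34.7 and 31.5 CPM in the pilot striatum, and at 163 and 74.7 CPM in the second midbrain against 26.6 and 22.3 CPM in the second striatum. Axl passed in both cohorts, with log2 differences of 0.98 (unadjusted p = 0.00252) and 2.09 (unadjusted p = 0.00105), and had an adjusted p of 0.0593 in the joint fit (1.40). The remaining 3 genes of this list, Tyro3, Gas6 and Pros1, did not pass between regions, and Gas6 was lower in the second cohort (-0.66, adjusted p = 0.0170).

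None of 5 Fc gamma receptor genes passed between regions, with joint estimates from -0.36 for Fcgr3 to 0.36 for Fcgr4. Between cohorts 4 of the 5 passed, all higher in the second: Fcgr2b as given above, Fcgr3 (0.85, adjusted p = 0.00508), Fcgr4 (1.11, adjusted p = 0.0135) and the shared signalling chain Fcer1g (0.44, adjusted p = 0.0466). The median of the list was 0.81, against -0.02 over all genes tested, of which 4.71% were higher and 10.5% differed either way. Fcgr3 stood at 1181 to 1826 CPM in the pilot and 2189 to 2987 CPM in the second cohort, and how many of all genes separated in this way was not counted. Only Fcgr3 and Fcgr4 passed when scaled to the housekeeping genes, with a list median of 0.44. Leaving out 1 library gave 1 to 4 passing genes: of the 8 such fits Fcgr3 passed in 8, Fcgr4 in 6, Fcgr2b in 2 and Fcer1g in 1, and the fits with 1 were those without either midbrain library of the pilot cohort. Of the 5 substrates and partners of CD45, Ptprcap passed in the pilot cohort (1.43, unadjusted p = 0.00286) and none passed between cohorts. Ptprcap codes for a protein that associates with CD45 and is best known from lymphocytes, whose 11 T and NK cell markers summed to 82.3 to 278 CPM in midbrain and 8.59 to 50.9 CPM in striatum; their part was not tested.

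Among 13 leukocyte actin and membrane proteins, Cd52 passed in each cohort (0.89 and 1.48, unadjusted p = 0.00154 and 0.00365) and none in the joint fit, with estimates from -0.48 for Cd9 to 1.76 for Cd48. Lcp1, Arhgdib and Cd48 were higher in the second cohort (adjusted p = 0.0249, 0.0104 and 0.0432). Of 12 other pan-macrophage genes, Lyz2, which codes for lysozyme, and Cybb, the catalytic subunit of the phagocyte NADPH oxidase, passed in each cohort and in the joint fit, with log2 differences of 1.61 (adjusted p = 0.0209) and 2.19 (adjusted p = 0.0181). Cd33 was lower in the pilot midbrain (-0.72, unadjusted p = 0.00801). Between cohorts 3 of these 12 genes, Cd68, Ctss and Lyz2, were higher in the second (limma, adjusted p under 0.05), where 4.71% of all genes were. Cybb stood at 148 to 702 CPM in midbrain libraries and 40.6 to 70.9 CPM in striatum libraries. The summed markers of monocytes, neutrophils and border macrophages, which also express Lyz2 and Cybb, were higher in the same midbrain libraries, as given above, and their part was not tested.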

How the data were processed

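The 10 bulk libraries of microglia bound to CD11b beads were aligned by the authors with STAR (version 2.5.3a, per the submitters' processing notes) to GRCm38 and counted per gene over exons with featureCounts (1.6.0) on Gencode M17, with no strand setting named and without reads of more than 1 gene; they deposited raw read counts for 53715 genes, and 53620 identifiers were matched to a symbol.

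A gene entered a fit unless over 50% of its libraries had under 6 counts for it. TMM factors of edgeR 4.0.16 and voom, lmFit and eBayes of limma 3.58.1 (R 4.3.3) were then applied to each cohort (called at an unadjusted p under 0.01, as in the study's methods) and to the 8 libraries with cohort as covariate (adjusted p under 0.05, Benjamini-Hochberg over all genes). Log2 CPM used a prior count of 2. Libraries were grouped by title; 2 libraries whose file names contradict their titles were left out. DESeq2 1.42.0, the quasi-likelihood test of edgeR, other scalings and filters, the title number as a block, both placements of those 2 libraries and the omission of each library were the alternatives. Scripts were tested on simulated data. Replicates differed beyond sampling noise, with chi-square per degree of freedom of 5.58 to 23.1. The genes named are the 10 members, the lowest, highest and called genes of each pathway list, and the steadiest and the nearest genes; Itgb2, housekeeping genes and the neighbours of Cd53 beyond the nearest were added with their values known. The members and lists were chosen with earlier results of these data known. Protein sequences were not used here.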

Additional observations from a re-analysis of the deposited data

How the results depend on the processing

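Depth limited the second cohort most, since 1 of its striatum libraries held 575709 counts; levels below 5.16 CPM cannot be told from 0 there. The direction of the regional difference held for Itgam, Csf1r, Mertk, Laptm5 and Coro1a in the joint fit under every alternative run. Causes of the shifts below were not tested.

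In the pilot cohort, dropping the filter gave 822 genes and 3 members called in place of 395 and 1, and leaving out each library in turn gave 108 to 2445 genes and 0 to 7 members, the 7 without striatum replicate 1, where replicate 2 stands alone and is assumed to vary like the midbrain. In the second cohort (468 genes, 0 members), a filter of 10 counts in every library gave 204 genes, the replicate block 988 genes and 2 members (Mertk and Cd53), placement of the unassigned libraries by title 132 genes and by file name 1 member, and leaving out each library 393 to 1240 genes and 0 to 1 members. In the joint fit (149 genes, 0 members), edgeR called 237 genes, DESeq2 544, no filter 277, the filter of 10 counts 57, the replicate block 308, placement by title 0 and by file name 440. Mertk was the 1 member called by DESeq2, library size only, the replicate block, placement by file name and housekeeping scaling, and no filter called 2, Mertk and Csf1r. Leaving out each library gave 0 to 238 genes and 0 members. Housekeeping scaling split the joint calls into 78 higher and 35 lower, against 137 and 12. For the regional change between cohorts DESeq2 called 3 genes and leaving out each library 0 to 7, with 0 members. Between cohorts (1480 genes, 3 members), placement by file name gave 2375 genes, housekeeping scaling 3743, no filter 5 members, and leaving out each library 134 to 2021 genes and 0 to 3 members. The members listed as constant, 4, fell to 1 with limits of 1.5-fold or with housekeeping scaling, and were 4 to 5 when each library was left out.

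Whether the title numbers pair the libraries by mouse is not known. Deviations of same-numbered libraries correlated at -0.03 in the pilot and 0.08 in the second cohort, which does not show that regions of a mouse were unpaired, since in the second cohort the numbers of the file names differ from those of the titles. The replicate block changed the calls of Mertk and Cd53 given above and of no other member.

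Some estimates of members changed sign, none of them called with the changed sign. For Aif1 these were 0.00 with edgeR, 0.01 with DESeq2, 0.05 with the filter of 10 counts, 0.00 with placement by title and 0.16 with member scaling in the joint fit, -0.01 with library size only in the second cohort, and -0.00 with library size only, -0.28 with housekeeping and -0.17 with member scaling between cohorts. Adgre1 reached 0.03 in the second cohort and 0.01 in the joint fit with placement by title, and 0.02 with member scaling. Fcgr2b was -0.07 with placement by file name and Laptm5 0.04 with placement by title in the second cohort. Cd53 was 0.12 with placement by title in the joint fit. Mertk was -0.24 with housekeeping and -0.13 with member scaling between cohorts. Leaving out each library gave ranges across 0 in the pilot cohort for Ptprc (-0.50 to 0.20), Aif1 (-0.26 to 0.05) and Cd53 (-0.40 to 1.92), in the second cohort for Aif1 (-0.02 to 0.15), Adgre1 (-0.86 to 0.20), Fcgr2b (-0.21 to 0.38) and Cd53 (-2.77 to 0.09), and in the joint fit for Ptprc (-0.03 to 0.45), Aif1 (-0.07 to 0.07), Adgre1 (-0.36 to 0.01), Fcgr2b (-0.43 to 0.05) and Cd53 (-0.94 to 0.52).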

Other observations

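The 2 libraries whose titles and file names name opposite regions were put in no group. Their levels are given here as values, on TMM factors taken over all 10 libraries. The first held 1584013 counts, with Cd53 at 468 CPM, above the 20.4 to 230 CPM of the 8 other libraries on the same scale, Mertk at 619.8 CPM (231 to 610 CPM), Fcgr2b at 456 CPM (154 to 442 CPM), Ptprc at 361 CPM (126 to 351 CPM), and Coro1a at 657.5 CPM, just under the 666 to 1178 CPM of the others. The second held 5194739 counts, with Csf1r at 3831 CPM, under the 4356 to 7047 CPM of the others, and Laptm5 at 4773 CPM, under their 6139 to 11810 CPM. Aif1 was inside the range of the other libraries in both, at 914 and 830.3 CPM against 766 to 1013 CPM.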
